A study of Mus musculus with 12 samples.

Results

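AP-1 is a group of transcription factors that work as pairs of Jun and Fos proteins, and its 7 classical genes are described here across D3 neurons, a scrambled control and knockdowns of 2 protein arginine methyltransferases. The 7 genes are Jun, Junb and Jund of the Jun branch and Fos, Fosb, Fosl1 and Fosl2 of the Fos branch. They were chosen as a gene family by name, with earlier results of these data known, among them the low Jund level in siPRMT8. That low value is therefore given as a description, and its tests are no independent evidence. Each gene had a single probe set with its symbol alone, so 7 of the 19938 genes with a symbol belong to the family. Fosl1 had a mean of 5.21 on the log2 scale and lay below the limit of 5.43 that left out the dimmest 25% of genes, so 6 members were among the 14953 genes tested.

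The cells were neurons made from D3, a line of mouse embryonic stem cells, and collected on day 16 of a differentiation through floating aggregates without the self-renewal factor LIF. Of the 4 groups, the controls were unmodified D3 cells (D3) and D3 cells with a scrambled non-target sequence (siSCR). The others were D3 cells with knockdown of PRMT1 (siPRMT1) and D3 cells with knockdown of PRMT8 (siPRMT8). The sample titles name no other treatment, so a treatment shared by all groups cannot be read from them. Each group had 3 samples, called biological replicates in the labels, and each sample was read on 1 array with 1 colour. The labels name no separate clones or differentiations, so each p-value measures the spread between these cultures, and the history of a cell line and its knockdown cannot be told apart. PRMT1 and PRMT8 are enzymes that add asymmetric dimethyl marks to arginine, PRMT1 in most cells and PRMT8 mainly in brain.

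Jun and Fos proteins share a basic region that contacts DNA and a leucine zipper that holds the pair together. Jun proteins can pair with each other, whereas Fos proteins bind DNA only with a partner, and the pair prefers the sequence TGACTCA, the TPA response element. In neurons Fos, Fosb and Junb are immediate early genes, switched on within minutes by calcium and growth factor signals through serum response factor and CREB, whereas Jund is expressed in many resting cells and Jun responds to stress kinases and to axon injury.

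The DNA just upstream of the 3 members that were lower in the siPRMT8 arrays is shown with its matches to a set of known motifs. The RefSeq promoter table (GRCm38.p6) held a window for 6 of the 7 members, Fosl1 being the exception. The 250 bases before the annotated start were searched on both strands for TGACTCA, the cyclic AMP response element TGACGTCA, its core TGACG (which also lies within the full element), the AP-1-like sites TGACATCA and TTACCTCA known from the Jun promoter, and the serum response motif CArG. Matches are in capitals. The windows are Fos at chr12:85473640-85473889 on the plus strand, Jun at chr4:95052223-95052472 on the minus strand and Jund at chr8:70697489-70697738 on the plus strand.
Fos: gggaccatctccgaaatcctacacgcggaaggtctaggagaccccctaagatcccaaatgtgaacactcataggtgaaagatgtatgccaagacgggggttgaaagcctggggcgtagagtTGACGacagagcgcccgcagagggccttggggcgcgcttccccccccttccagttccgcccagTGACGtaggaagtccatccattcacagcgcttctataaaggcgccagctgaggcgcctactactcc
Jun: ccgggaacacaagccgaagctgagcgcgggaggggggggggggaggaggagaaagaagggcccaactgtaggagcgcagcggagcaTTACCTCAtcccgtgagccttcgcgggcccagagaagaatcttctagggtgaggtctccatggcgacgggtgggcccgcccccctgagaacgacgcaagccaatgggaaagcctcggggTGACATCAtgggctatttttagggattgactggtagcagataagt
Jund: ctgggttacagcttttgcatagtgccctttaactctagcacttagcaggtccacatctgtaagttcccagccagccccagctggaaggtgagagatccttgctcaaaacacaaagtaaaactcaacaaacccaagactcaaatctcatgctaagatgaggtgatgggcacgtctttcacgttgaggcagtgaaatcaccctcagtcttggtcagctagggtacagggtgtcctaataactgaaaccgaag

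Fos carried TGACG at 129 to 125 and at 66 to 62 bases before the start. Jun carried TTACCTCA at 164 to 157 and TGACATCA at 45 to 38 bases before the start. The Jund window held none of the motifs searched. Its 47.6% GC and 3 CpG dinucleotides lay below the 58.4% and 15 of Fos and the 61.2% and 15 of Jun. Over the windows of all genes the medians were 52.4% GC and 6 CpG. Of these windows 37.8% had as few CpG as Jund, and 74.6% as few as Fos or Jun. RefSeq lists more than a single Jund transcript, and the window lies before the outermost start, so sequence before another start was not examined. Over the 32851 windows of all genes, 17.8% held TGACG, 2.93% TGACATCA, 0.728% TTACCTCA, 4.46% TGACTCA, 1.55% TGACGTCA and 1.47% CArG. Of the members not printed, Fosb and Junb each carried 1 TGACG and Fosl2 no match. These matches are letters in a window and were not tied to a measured binding event. Sequence further than 250 bases upstream was not searched, so a motif without a match here may still lie there.

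Before the members are compared, the arrays themselves need a description. The medians of the 12 arrays over all probe sets differed by at most 0.023, and siSCR replicate 1 lay at 0.105 on the first principal component, between the other control arrays (-26.2 to -21.6) and the knockdown arrays (13.6 to 25.7). Prmt1 averaged 7.75 in siPRMT1, 8.82 in siSCR and 9.24 in siPRMT8 (siPRMT1 and siPRMT8 against siSCR, adjusted p = 0.000115 and 0.00625, limma). Prmt8 averaged 6.35 in siPRMT8, 6.64 in siPRMT1 and 6.96 in siSCR (siPRMT8 against siSCR, adjusted p = 0.0171, limma). Between siPRMT1 and siPRMT8, Prmt1 was called (log2 difference -1.49, adjusted p = 2.355e-05, limma) and Prmt8 was not. The Prmt8 level therefore did not separate the knockdown lines from each other by this test. All 18 pan-neuronal genes listed passed the low-value filter, and no detection limit was set. The log2 of their summed level was 14.04 to 14.14 in D3, 14.06 and 14.09 in siSCR replicates 3 and 2, 13.17 in siSCR replicate 1, 12.87 to 13.14 in siPRMT1 and 13.11 to 13.24 in siPRMT8. Of these 18 genes 12 were lower and 1 was higher in siPRMT8 against siSCR, and 14 were lower and 0 higher in siPRMT1, where over all tested genes 13.2% were lower and 10.7% higher in siPRMT8 and 11.6% and 7.18% in siPRMT1. Of 10 tested astrocyte markers 7 were lower and 1 was higher in siPRMT8, and 9 and 1 in siPRMT1, with a summed level (log2) of 11.97 to 12.45 in siSCR, 11.34 to 11.57 in siPRMT1 and 11.43 to 11.68 in siPRMT8. Of 11 cell cycle genes 5 were higher and 0 lower in each knockdown line (0 lower also at an unadjusted p under 0.05, limma). Of 10 mesenchymal markers 6 were lower and 1 was higher in siPRMT8, and 5 and 0 in siPRMT1. Of 10 neural progenitor markers 1 was lower and 4 were higher in siPRMT8, and 3 were lower and 1 was higher in siPRMT1. In the oligodendrocyte, endothelial, myeloid, epithelial and pluripotency lists 0 to 2 genes were called in either direction. No marker of these 10 lists was called between siPRMT1 and siPRMT8 by limma, where each list had 0 to 4 lower and 0 to 3 higher genes at an unadjusted p under 0.05. In these whole cultures fewer cells of a type and less RNA per cell cannot be told apart, and the part of these shifts in the AP-1 values was not tested.

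Among the Jun genes, Jund separated the knockdown lines from the controls and from each other. Jund encodes a broadly expressed Jun protein that is bound and restrained by the tumour suppressor menin. The D3 arrays read 8.53, 8.64 and 8.63 on the log2 scale, and the siSCR arrays 8.64, 8.77 and 8.60. Jund was 8.34, 8.19 and 8.24 in siPRMT1 and 7.82, 7.81 and 7.89 in siPRMT8. The 6 control arrays were high, the siPRMT1 arrays lay between, the siPRMT8 arrays were lowest, and only D3 and siSCR overlapped. For this and the other members, the share of all tested genes whose groups do not overlap is not given. A lack of overlap is therefore a description of the values only. Against siSCR, Jund was lower by a log2 difference of -0.83 in siPRMT8 (1.78-fold, SE 0.0668, adjusted p = 0.000206, n = 3 per group, limma). The difference from D3 was -0.76 (SE 0.0668, adjusted p = 0.000264, limma). By p-value Jund stood at rank 2 of the 14953 genes in siPRMT8 against siSCR and at rank 6 against D3. By size it stood at rank 383 from the lowest in siPRMT8 against siSCR. These ranks describe a gene whose low siPRMT8 level was known beforehand, and they are no independent evidence.

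In siPRMT1 the Jund difference was smaller, -0.41 against siSCR (1.33-fold, SE 0.0668, adjusted p = 0.00251) and -0.34 against D3 (adjusted p = 0.00336, limma). The call against siSCR was lost in the fit of those 2 groups alone (adjusted p = 0.052). The direct difference between the knockdown lines was 0.42, higher in siPRMT1 than in siPRMT8 (95% interval 0.27 to 0.56, adjusted p = 0.0417, limma). Jund was 1 of 13 genes called higher in siPRMT1 than in siPRMT8, 0.0869% of those tested, while 0.0669% were called lower. These small shares depend on 1 array, since 862 genes (5.765%) were called in either direction when siPRMT1 replicate 2 was left out. The place of Jund among the 13 genes is a description, since its low level in siPRMT8 was known when the family was chosen. That direct call was lost in 8 of 17 alternatives, among them the fit of these 2 groups alone (adjusted p = 0.229), no low-value filter (0.0637) and leaving out siPRMT1 replicate 1 (0.130) or 3 (0.135) or any siPRMT8 array (0.125 to 0.189), although the difference stayed between 0.37 and 0.45. The siSCR and D3 levels of Jund did not separate (log2 difference 0.07, 95% interval -0.08 to 0.22, adjusted p = 0.794, limma).

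Jun encodes c-Jun, the strongest activator of the family and the target of the Jun N-terminal kinases. Its log2 level in D3 was 9.05, 8.98 and 8.83. The siSCR arrays read 8.32, 8.86 and 8.98. It was 8.19, 8.28 and 8.27 in siPRMT1 and 8.27, 8.21 and 8.28 in siPRMT8. The 6 knockdown arrays lay between 8.19 and 8.28, and siSCR replicate 1 at 8.32 lay next to them, apart from the other 5 control arrays. Jun fell by 0.46 on the log2 scale in siPRMT8 (SE 0.134, adjusted p = 0.0278) and by 0.47 in siPRMT1 (SE 0.134, adjusted p = 0.0301) against siSCR (limma). Without siSCR replicate 1 the differences were -0.66 and -0.67 (adjusted p = 8.5e-05 and 6.3e-05), and without siSCR replicate 2 or 3 they were -0.41 to -0.33 and did not pass (adjusted p = 0.104 to 0.124). The siPRMT8 call was also lost without any 1 of its own arrays (adjusted p = 0.0671 to 0.0745), the siPRMT1 call without replicate 1 (0.0717) or 3 (0.0697) of its own, and both in fits of 2 groups alone (0.0747 and 0.147).

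Against D3, whose 3 arrays lay close together, Jun fell by 0.70 in siPRMT8 (1.62-fold, adjusted p = 0.00313) and by 0.71 in siPRMT1 (1.64-fold, adjusted p = 0.00292, limma). Jun did not separate the knockdown lines (log2 difference -0.01, 95% interval -0.31 to 0.28, adjusted p = 0.984, limma). In siSCR replicate 1 the summed pan-neuronal level lay in the range of the knockdown arrays, while the median over the same 18 genes, 8.83, lay above theirs (8.41 to 8.60) and below those of the other control arrays (9.54 to 9.72). Jun was near the knockdown arrays in that array, while Jund (8.64) and Fos (6.68) were at the level of the other control arrays.

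Junb encodes a Jun protein that can restrain c-Jun and that many signals induce early. Its log2 level stayed between 5.92 and 6.27 in all 12 arrays. The siPRMT1 arrays read 6.21, 6.27 and 6.20 and the siPRMT8 arrays 6.06, 6.04 and 5.92, without overlap. The D3 arrays (6.12, 6.09 and 6.14) lay between the knockdown lines. The siSCR arrays (6.12, 6.03 and 6.15) lay below those of siPRMT1 and overlapped those of siPRMT8. The log2 difference between siPRMT1 and siPRMT8 was 0.22 (95% interval 0.09 to 0.35, unadjusted p = 0.00318 by limma) and did not pass over all genes (adjusted p = 0.193). Junb did not pass against siSCR in siPRMT1 (log2 difference 0.12, adjusted p = 0.162) or in siPRMT8 (-0.09, adjusted p = 0.281, limma).

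**Figure D1:**
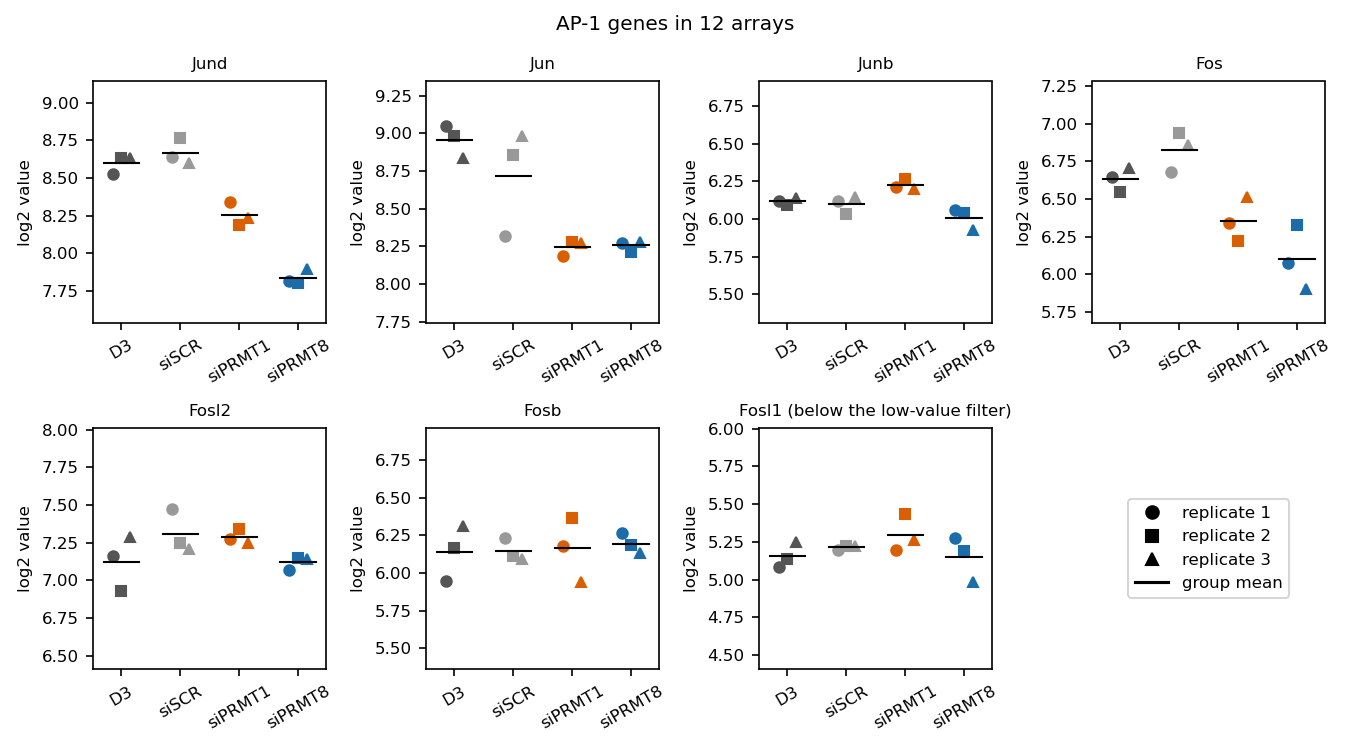
Log2 value of each AP-1 gene (vertical axes, each spanning 1.6 around the gene's mean over 12 arrays) in the 4 groups, with 1 point per array and a line at each group mean. Jund steps down from the controls (8.53 to 8.77) to siPRMT1 (8.19 to 8.34) and siPRMT8 (7.81 to 7.89), while Jun is alike in both knockdown lines and siSCR replicate 1 sits with them.

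In the Fos branch the founding member was the one that differed. Fos encodes c-Fos, an immediate early protein widely used as a readout of neuronal activity. On the log2 scale D3 arrays had values of 6.65, 6.55 and 6.71, and siSCR arrays 6.68, 6.94 and 6.85. Fos was 6.34, 6.22 and 6.51 in siPRMT1 and 6.08, 6.33 and 5.90 in siPRMT8. Every knockdown array lay below every control array, and the knockdown lines overlapped. Against siSCR, Fos fell by 0.72 on the log2 scale in siPRMT8 (1.65-fold, SE 0.113, adjusted p = 0.00179) and by 0.47 in siPRMT1 (1.38-fold, SE 0.113, adjusted p = 0.0151, limma). Against D3 it fell by 0.53 in siPRMT8 (adjusted p = 0.00513, limma), and in siPRMT1 the difference of -0.28 did not pass (95% interval -0.52 to -0.03, adjusted p = 0.0883).

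The siPRMT1 call against siSCR was lost without siSCR replicate 2 (adjusted p = 0.0679) or 3 (0.0589) and in the fit of these 2 groups alone (0.0623), whereas the siPRMT8 call against siSCR held in all 16 alternatives that kept Fos. The direct difference between the lines was 0.25 (95% interval 0.01 to 0.50) and did not pass (adjusted p = 0.394, limma).

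Fosl2, Fosb and Fosl1 showed no called difference. Fosl2 encodes Fra-2, a Fos protein without a strong activation domain. It read 7.16, 6.93 and 7.29 in D3, 7.47, 7.25 and 7.21 in siSCR, 7.27, 7.34 and 7.25 in siPRMT1 and 7.07, 7.15 and 7.14 in siPRMT8. The siPRMT8 arrays lay just below the siSCR arrays with a gap of 0.06, and the log2 difference of -0.19 did not pass (95% interval -0.39 to 0.01, adjusted p = 0.164, limma). Fosb, an activity-induced gene that also gives the stable splice form deltaFosB, ranged from 5.94 to 6.37. Its groups overlapped in all 6 comparisons, and its log2 differences lay between -0.03 and 0.05 (adjusted p = 0.75 or more, limma). The array has 1 value for Fosb, so its splice forms were not separated. Fosl1 encodes Fra-1, a Fos protein of proliferating and invasive cells, and ranged from 4.99 to 5.43. With no low-value filter its log2 differences were -0.06 in siPRMT8 (adjusted p = 0.692) and 0.08 in siPRMT1 (adjusted p = 0.555) against siSCR, by limma.

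Counted together, 3 of the 6 tested members (Jund, Jun and Fos) were lower in siPRMT8 against siSCR and 0 were higher, where 13.2% of all tested genes were called lower and 10.7% higher (limma). The same 3 were lower in siPRMT1 against siSCR, where 11.6% of all genes were called lower and 7.18% higher. Against D3, 3 members were lower in siPRMT8 (15.2% of all genes lower, 12.5% higher) and 2, Jund and Jun, in siPRMT1 (14.7% lower, 11.7% higher). With an unadjusted p under 0.05 the count of higher members was 0 in each of these 4 comparisons too. The comparisons against a common control share its arrays, so they do not count as separate evidence. The median log2 difference of the 6 was -0.33 in siPRMT8 and -0.22 in siPRMT1 against siSCR, with 0.01 and 0.04 over all tested genes. Jund enters these counts and medians, and its low siPRMT8 level was known beforehand. The siPRMT8 counts and median are therefore a description and no independent evidence. In siSCR against D3 no member was called by limma, and 0 had an unadjusted p under 0.05, where 0.0936% of all genes were called lower and 0.0602% higher. Between siPRMT1 and siPRMT8, Jund alone passed, while Fos and Junb also had an unadjusted p under 0.05, both higher in siPRMT1.

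**Figure D2:**
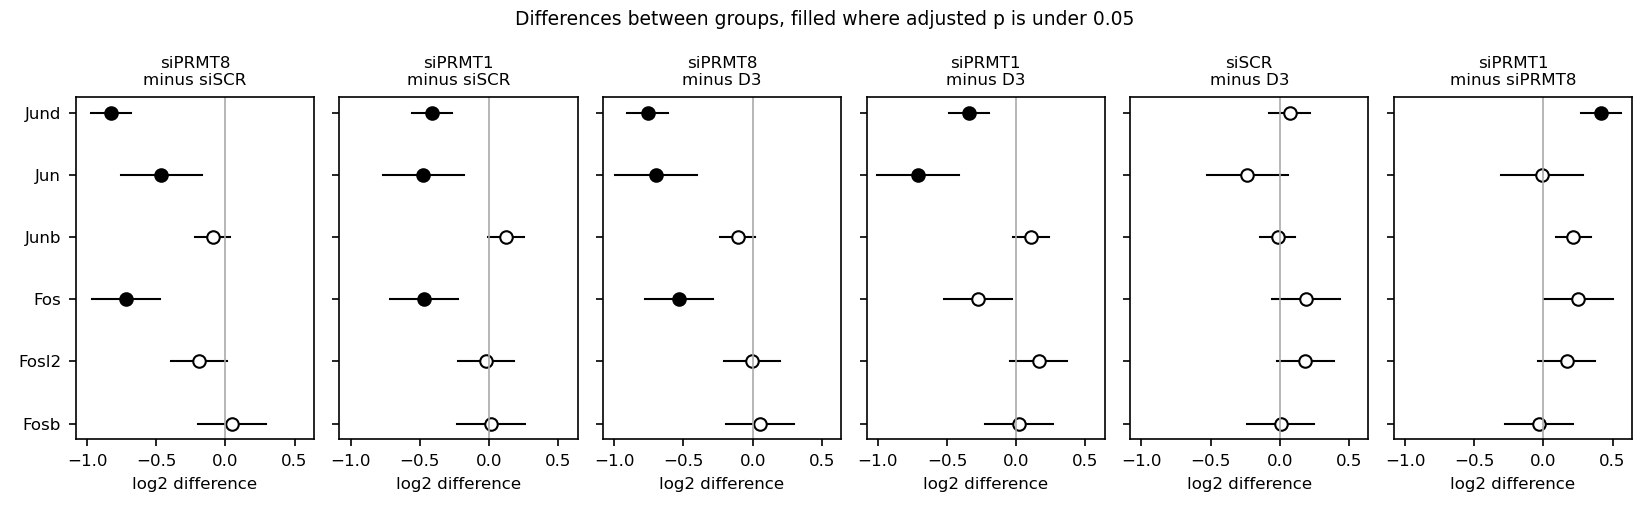
Log2 difference between groups (horizontal axis) for the 6 tested AP-1 genes in 6 comparisons, with the 95% interval from limma as a line; filled points passed an adjusted p of 0.05. Jund, Jun and Fos lie left of 0 in both knockdown lines, and Jund is the filled point at 0.42 in siPRMT1 minus siPRMT8.

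Set among all tested genes, the 3 lower members lay in the lower flank of the distribution without being extreme in size. In siPRMT8 against siSCR, 2.56% of genes had a log2 difference as low as that of Jund, 3.48% as low as Fos and 7.66% as low as Jun. In siPRMT1 these shares were 8.85% for Jund, 7.61% for Fos and 7.46% for Jun. Between the knockdown lines 99.3% of genes lay at or below Jund, which had rank 14843 of 14953 from the lowest.

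**Figure D3:**
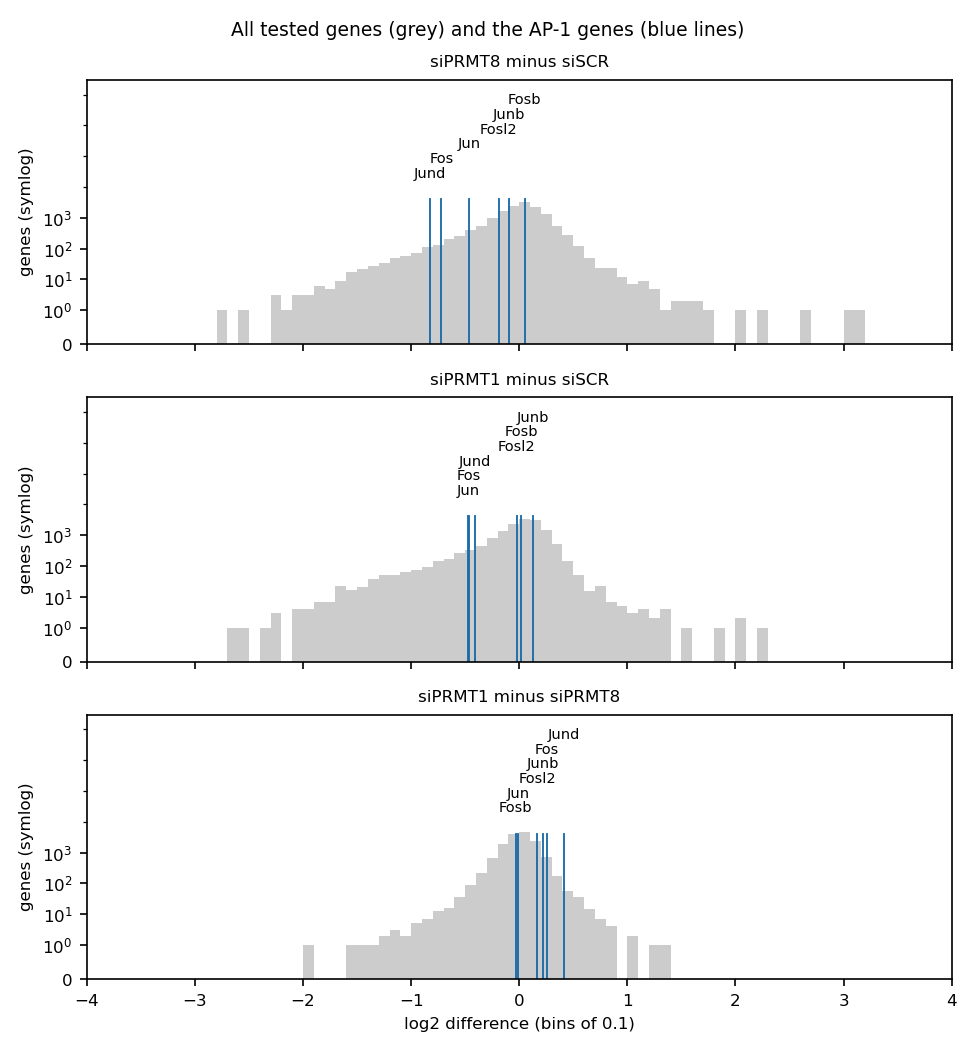
Number of tested genes (vertical axis, symmetric log scale) by log2 difference (horizontal axis, bins of 0.1) in 3 comparisons, with a blue line at the value of each AP-1 gene. Of the AP-1 genes, Jund (-0.83) and Fos (-0.72) lie furthest left in siPRMT8 minus siSCR, and Jund (0.42) furthest right in siPRMT1 minus siPRMT8.

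How the members varied within groups was also examined. Over the 12 arrays the Pearson correlation was 0.88 between Fos and Jund, 0.73 between Jun and Jund and 0.70 between Fos and Jun. After the group means were taken away these values were -0.02, -0.07 and 0.25. The 3 genes are those called lower in the knockdown lines, so their likeness between groups follows from that choice. These correlations describe 12 arrays in 4 groups and carry no test. After the group means were taken away the pairs with the largest values of either sign were Junb and Fosl1 (0.73), Junb and Jund (-0.71) and Fosl2 and Jun (-0.68), of 21 pairs.

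The genes whose pattern over the 12 arrays was most like that of Jund were Cic, Map4, Zfp704, Fbxl2 and Dalrd3 (Pearson r 0.96 for each, Spearman rho 0.82 to 0.89). Cic encodes the repressor Capicua and Map4 a microtubule-binding protein. Both were lower in siPRMT8 against siSCR, Cic by a log2 difference of -0.46 (adjusted p = 0.00089) and Map4 by -0.49 (adjusted p = 0.000778, limma). The 5 genes were picked by their likeness to Jund in these same arrays, so these p-values are a description and no independent evidence. None of the 5 was called between siPRMT1 and siPRMT8 (log2 differences 0.15 to 0.22, adjusted p = 0.161 to 0.336, limma). Those most like Fos were Slc49a4, Zbtb4, Tbc1d24, Hspb6 and Camkk2 (r 0.95 to 0.97, rho 0.94 to 0.99). Camkk2 encodes a calcium-dependent kinase that activates Camk4. These arrays share the split into control and knockdown lines, and 99 of 14107 named genes reached an r of 0.9 with Jund and 88 with Fos.

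The genes around AP-1 were examined as 6 lists, which were written from general knowledge. Each count is to be read against the shares of all tested genes called against siSCR, 13.2% lower and 10.7% higher in siPRMT8 and 11.6% lower and 7.18% higher in siPRMT1. Among 21 tested partner genes, other leucine zipper factors that pair with Jun or Fos or bind related sites, 2 were lower and 1 was higher in siPRMT8 against siSCR, both below the shares of all genes. They were Maf (log2 -0.40, adjusted p = 0.0487), the stress-induced Atf3 (-0.27, adjusted p = 0.0415) and Creb1, which encodes the CREB factor that induces Fos (0.43, SE 0.0698, adjusted p = 0.00221, limma). In siPRMT1, Maf (-0.53) and Bach2 (-0.55) were lower and Bach1 was higher (0.24), and Creb1 did not pass (0.17, adjusted p = 0.106). The list median was 0.02 in siPRMT8 and 0.06 in siPRMT1, against 0.01 and 0.04 over all tested genes. At an unadjusted p under 0.05 (limma), 7 were lower and 2 higher in siPRMT8, and 2 lower and 3 higher in siPRMT1. The share of all genes at that unadjusted threshold is not given. Against D3, Atf3 fell by 0.49 in siPRMT8 (adjusted p = 0.00199) and Creb1 was higher by 0.25 (adjusted p = 0.0214, limma).

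Among 23 kinase pathway genes, 5 were lower and 2 were higher in siPRMT8 against siSCR (median -0.13), and 6 were lower and 0 higher in siPRMT1 (median -0.07, 1 higher at an unadjusted p under 0.05, limma). In siPRMT8 these counts stand beside the 13.2% lower and 10.7% higher of all genes. Against D3, 8 were lower in siPRMT8 and 9 in siPRMT1, and 0 were higher (2 in each at an unadjusted p under 0.05, limma). There, 15.2% and 14.7% of all genes were lower, and 12.5% and 11.7% higher. The genes lower against siSCR included the scaffolds of the Jun N-terminal kinase pathway. Mapk8ip1 fell by 0.51 in siPRMT8 (SE 0.0911, adjusted p = 0.00313) and by 0.54 in siPRMT1 (adjusted p = 0.00321, limma). Mapk8ip2 fell by 0.49 and 0.53 (adjusted p = 0.0282 and 0.0244, limma). The upstream kinases Map2k6 (0.50, adjusted p = 0.0108) and Map2k4 (0.22, adjusted p = 0.0202) were higher in siPRMT8 against siSCR by limma, but neither passed against D3 (adjusted p = 0.649 and 0.129). The scaffolds are made mainly in neurons, and pan-neuronal markers were lower in the same arrays. A link between these falls was not tested.

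Among 17 genes of serum response factor, its cofactors and the calcium pathway to CREB, 7 were lower in siPRMT8 and 4 in siPRMT1 against siSCR, and 0 were higher (0 and 1 at an unadjusted p under 0.05, limma), beside 13.2% and 11.6% of all genes lower and 10.7% and 7.18% higher. Camk4, a neuronal kinase that activates CREB, fell by 0.59 (adjusted p = 0.0241) and 0.77 (adjusted p = 0.00872), and the CREB coactivator Crtc1 fell by 0.45 in both (adjusted p = 0.0129 and 0.0155, limma). Myocd, a serum response factor coactivator of muscle, fell by 0.46 in siPRMT8 (adjusted p = 0.0148, limma) and did not pass against D3 (-0.22, adjusted p = 0.18). The list medians were -0.19 and -0.06.

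Among 20 genes that restrain AP-1, 5 were lower in siPRMT8 and 2 in siPRMT1 against siSCR, and 0 were higher. The list medians were -0.02 in each line. At an unadjusted p under 0.05 (limma), 8 were lower and 3 higher in siPRMT8, and 5 lower and 2 higher in siPRMT1. The siPRMT1 count of genes called lower is below the 11.6% of all genes, and the siPRMT8 count stands beside 13.2%. Dusp8, a phosphatase of the Jun N-terminal and p38 kinases that is abundant in neurons, had the largest fall, by 1.24 in siPRMT8 (2.36-fold, SE 0.114, adjusted p = 0.000305) and by 1.26 in siPRMT1 (2.39-fold, adjusted p = 0.000168, limma). Its other probe set gave -1.11 and -1.29. Dusp10 fell by 0.31 and 0.21 (adjusted p = 0.00635 and 0.0399), and the RNA-binding protein gene Zfp36 by 0.78 in siPRMT8 (adjusted p = 0.0416, limma). Against D3, 6 genes of the list were lower and 3 higher in siPRMT8, and 4 were lower and 1 was higher in siPRMT1. There, 15.2% and 14.7% of all genes were lower, and 12.5% and 11.7% higher.

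Among 23 tested genes known as AP-1 targets in some cell type, 10 were lower and 1 was higher in siPRMT8 against siSCR, and 8 were lower and 1 was higher in siPRMT1 (medians -0.17 and -0.17), beside 13.2% and 11.6% of all genes lower and 10.7% and 7.18% higher. The largest falls were in neuronal genes. The AMPA receptor gene Gria2 fell by 1.68 and 2.08 (adjusted p = 0.0023 and 0.00108) and the enkephalin precursor gene Penk by 0.87 and 1.18 (adjusted p = 0.00768 and 0.00233, limma). The chemokine gene Ccl2 was higher by 0.23 in both (adjusted p = 0.0185 and 0.0218, limma), which did not pass against D3 (adjusted p = 0.0677 and 0.067). These genes are also markers of neurons or other cells, and the list is not a measure of AP-1 activity.

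Of 23 other immediate early genes tested, 2 were lower and 0 higher in each knockdown line against siSCR. The list medians were -0.14 in siPRMT8 and -0.06 in siPRMT1, against 0.01 and 0.04 over all tested genes. At an unadjusted p under 0.05 (limma), 8 were lower and 0 higher in siPRMT8, and 4 lower and 1 higher in siPRMT1. The share of all genes at that unadjusted threshold is not given. Both counts of genes called lower are below the 13.2% and 11.6% of all genes. In siPRMT8 these were the matricellular gene Ccn1 (-0.69, adjusted p = 0.0355) and Ier3 (-0.64, adjusted p = 0.0434), and in siPRMT1 Myc (-0.63, adjusted p = 0.00294) and Nr4a3 (-0.22, adjusted p = 0.0453, limma). Against D3, 4 genes of the list were lower and 1 was higher in siPRMT8, and 5 and 1 in siPRMT1. There, 15.2% and 14.7% of all genes were lower, and 12.5% and 11.7% higher. No member of the 6 lists was called between siPRMT1 and siPRMT8 by limma, and at an unadjusted p under 0.05 each list had 0 to 2 lower and 0 to 5 higher genes.

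**Figure D4:**
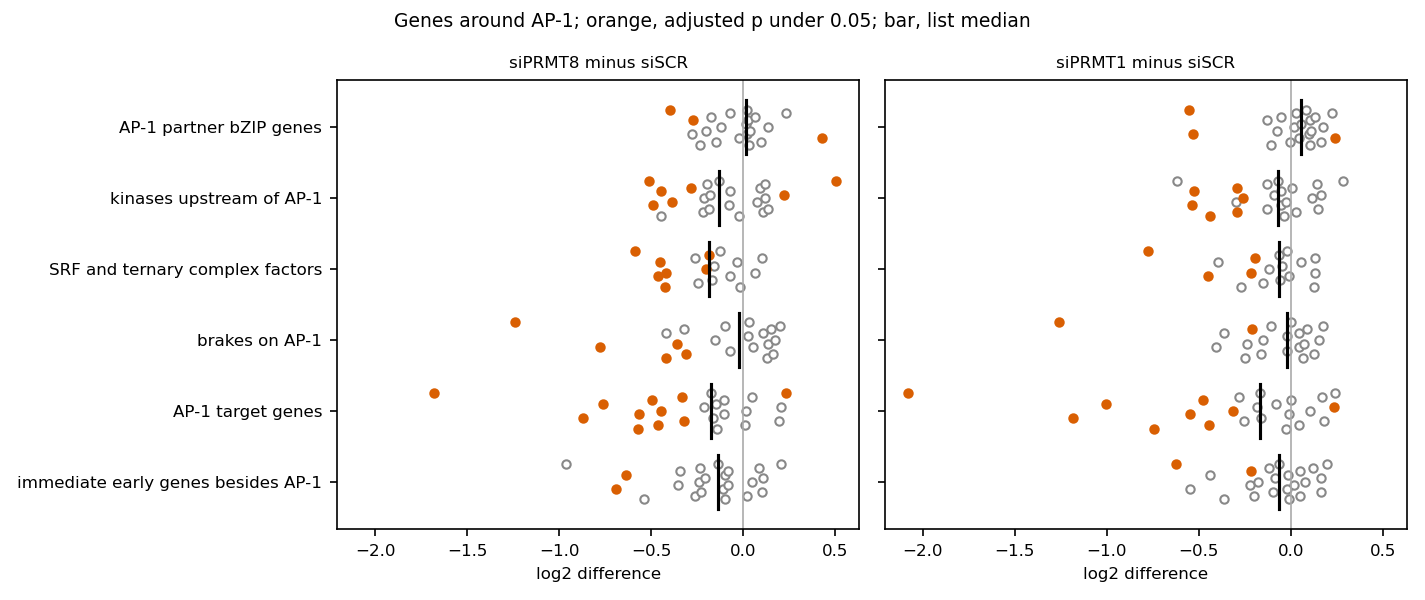
Log2 difference (horizontal axis) of each tested gene in the 6 lists around AP-1, in siPRMT8 minus siSCR (left) and siPRMT1 minus siSCR (right). Orange points passed an adjusted p of 0.05 and the bar marks the list median, between -0.19 and 0.06 in these panels. Gria2 (-1.68 and -2.08) and Dusp8 (-1.24 and -1.26) lie furthest left.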

How the data were processed

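Total RNA was labelled as biotinylated single-stranded cDNA and read on 1-colour whole-transcript arrays, per the labels' protocols. The table deposited by the authors gives log2 values for 35556 probe sets on 12 arrays (0.966 to 13.5), a scale read from the values. The sources used here do not state how background was corrected or arrays normalised. Scanner files were not used, so no detection limit was set. The level of one probe set cannot be set against that of another.

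Probe sets with 1 symbol (21789) were kept, and those with several (1621) or none (12146) left out. Symbols were updated through RefSeq by gene ID (21698 matched). The probe set with the highest mean represented each gene, and the lowest 25% were left out. All 12 arrays were fitted in 1 model of 4 group means with limma 3.58.1 (R 4.3.3), with Benjamini-Hochberg adjustment over the 14953 tested genes and a threshold of 0.05. Each SE printed is the moderated one of limma.

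Named genes were the members, Prmt1 and Prmt8, up to 2 higher and 2 lower called genes of each list, and the 5 genes most correlated with Jund and with Fos, without predicted genes. Members and lists were chosen with earlier results of these data known. Simulated data for siPRMT8 against siSCR held 14953 genes, with 67, 67 and 66 of them changed 1.5-fold, 2-fold and 4-fold. Of these, 85.1%, 91% and 100% were found, and 5 unchanged genes were called. In the measured arrays 3565 genes were called in this comparison, so these shares need not hold there. Replicate numbers occur in every group. After group means were taken away, arrays sharing a number correlated above 0.1 in all 3 pairs for siSCR and D3 (0.107 to 0.194) and not for the other comparisons, and a model blocked on that number was 1 of the alternatives. The other alternatives changed the scaling (quantile, median centring), the filter, how probe sets were combined, the variance model, the weight of each array, or which groups and arrays entered the fit.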

Additional observations from a re-analysis of the deposited data

Results flagged for a closer look

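The Jund difference between the knockdown lines is listed because the lines differed in the same contrast. Jund was 0.416 higher (log2) in siPRMT1 than in siPRMT8 (adjusted p = 0.0417, limma, no overlap between 3 and 3 arrays), and its fall against siSCR was 0.41 in the former and 0.83 in the latter. The family was chosen with the low siPRMT8 value of Jund known, so this p is a description and no independent evidence. The call was lost in 8 of 17 alternatives, with adjusted p up to 0.229.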

How the results depend on the processing

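In siPRMT1 against siSCR the 3 called members were 0 in the fit of those 2 groups alone and 1 to 3 with single arrays left out, with Jund as the 1 that stayed. In siPRMT1 against siPRMT8 the 1 called member was 0 with no low-value filter, in the fit of 2 groups alone and with the replicate block (adjusted p of Jund 0.105), and 0 or 1 with single arrays left out. The block changed no other count of called members, and siSCR against D3 had 0 in every alternative. Counts in the other comparisons stayed within 1.5 times. Jund and Fos in siPRMT8, against siSCR or D3, and Jun against D3 in both lines passed in every alternative that kept them. Called members kept their sign throughout. With the lowest 50% left out, Fos, Fosb and Junb were not tested. The fit with array weights stopped before full convergence. Keeping every probe set changes nothing here, since each member has 1. Over all genes, 3565 were called in siPRMT8 against siSCR (1804 to 5710 over the alternatives) and 2801 in siPRMT1 against siSCR (357 to 5528). Against D3 the numbers were 4135 in siPRMT8 (2736 to 6581) and 3952 in siPRMT1 (2643 to 6592). The count was 23 for siSCR against D3 (2 to 279) and 23 between the knockdown lines (2 to 1901, with 862 when siPRMT1 replicate 2 alone was left out). Precision is limited by 3 arrays per group.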
